A study of Mus musculus with 36 samples.

Results

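Skeletal muscle genes were followed across bulk RNA libraries of 36 subcutaneous mouse tumours. The set held 32 genes of the 37417 in the count table and was fixed by name: 17 genes of mature fast fibres, 8 of slow or oxidative fibres, 5 of embryonic, newborn or regenerating muscle and 2 contractile genes that other cells also use. All 32 were in the table. The 17 genes, called the mature fast list below, include some, such as Acta1 and Ttn, that are not particular to fast fibres. Levels are given as CPM, a gene's count scaled by the total of all genes in that library.

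The tumours came from 12-week-old wild-type mice. Cells of the colon carcinoma lines MC38 (in C57BL/6J mice) and CT26 (in BALB/c mice) or of the pancreatic line PancO2 (in C57BL/6J mice) had been injected under the skin of the flank. Every mouse received an antibody into the peritoneum at 10 mg per kg: control IgG from rat serum, anti-CTLA4 or anti-PD-1. Tumours were collected at end stage, which gave 9 labelled groups of 4 libraries, each named here by its labelled group and mouse number. Each model is 1 cell line, and all cells of the excised tissue, host cells included, are in the RNA.

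Skeletal muscle fibres contract when myosin heads pull on actin filaments, and each fibre type uses its own myosin heavy chain gene. Adult fast fibres use Myh4, Myh1 or Myh2, slow fibres use Myh7, and Myh3 and Myh8 are the embryonic and newborn forms, which return for a time when muscle regenerates. Satellite cells, the stem cells of muscle, carry Pax7, and their descendants pass through Myod1 and Myog before they fuse. In mice a thin sheet of skeletal muscle lies directly beneath the skin, and the body wall muscle lies below it.

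The labels did not match the strain of all libraries. H2-Ea-ps, an MHC class II gene whose promoter is deleted in C57BL/6 mice, was between 32.8 and 134 CPM in 12 libraries and at most 0.0845 CPM in the other 24. Of those 12 libraries, 4 were labelled CT26, the BALB/c model, and 8 carried another label. The libraries were therefore also read in 3 classes of 12, which are not groups of the study: the H2-Ea-ps class, the Cp class, where the ceruloplasmin gene Cp was above 1000 CPM, and the neither class. The Cp boundary lay between PancO2 IgG 49 at 611 CPM and PancO2 IgG 48 at 1389 CPM. Each class mixed libraries of all 3 labelled models. Krt8, an epithelial keratin, had a median of 435 CPM in the Cp class, 141 CPM in the neither class and 0.409 CPM in the H2-Ea-ps class. Totals ran from 7883106 to 41751023 counts per library. PancO2 anti-PD-1 71 stood apart, with the lowest total, 15.7% of counts from mitochondrial genes against 2.80% to 4.35% elsewhere and 86.5% of its reads assigned to no gene against 44.8% to 63.4%. Results that rest on it are given with and without it.

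The upstream sequence of 4 members is shown because 3 of them, Ckm, Acta1 and Myh4, peaked in the same libraries and the other, Myh3, did not follow them in every class. Each line gives the 250 bases before the RefSeq transcript start (GRCm38.p6), read 5′ to 3′ on the gene's strand. Ckm, the muscle creatine kinase, lies at chr7:19410844-19411093 on the plus strand, Acta1, skeletal muscle alpha-actin, at chr8:123894776-123895025 on the minus strand, Myh4 at chr11:67237562-67237811 and Myh3 at chr11:67078050-67078299, both on the plus strand. Capitals mark the E-box CAGCTG, a MEF2 match or a CArG box, all searched on both strands, and none of the marked matches overlap.
Ckm: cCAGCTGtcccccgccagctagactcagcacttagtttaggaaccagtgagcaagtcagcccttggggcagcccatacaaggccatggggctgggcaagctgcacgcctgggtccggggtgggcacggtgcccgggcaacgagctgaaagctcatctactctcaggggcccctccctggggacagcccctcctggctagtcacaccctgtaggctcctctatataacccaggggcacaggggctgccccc
Acta1: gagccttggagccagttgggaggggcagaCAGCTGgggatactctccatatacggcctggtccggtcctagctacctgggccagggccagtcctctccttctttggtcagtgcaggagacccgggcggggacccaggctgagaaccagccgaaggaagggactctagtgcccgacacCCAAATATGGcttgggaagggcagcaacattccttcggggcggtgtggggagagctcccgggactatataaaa
Myh4: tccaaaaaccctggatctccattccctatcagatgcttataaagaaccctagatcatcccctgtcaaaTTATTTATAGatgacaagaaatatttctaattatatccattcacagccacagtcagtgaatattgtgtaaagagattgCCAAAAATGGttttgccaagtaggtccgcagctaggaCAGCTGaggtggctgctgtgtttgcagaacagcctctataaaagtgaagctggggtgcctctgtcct
Myh3: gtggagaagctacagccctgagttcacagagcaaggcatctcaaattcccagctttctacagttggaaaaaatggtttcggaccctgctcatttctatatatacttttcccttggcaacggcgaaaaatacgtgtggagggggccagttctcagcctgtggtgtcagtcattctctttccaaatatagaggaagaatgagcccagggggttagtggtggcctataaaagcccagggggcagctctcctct
Of the 32 members, 27 had such a window, and Actn3, Tnnt3, Tnni2, Neb and Myod1 had none. CAGCTG was present upstream of 12 of the 27 (44.4%), and in 13.0% of all 32851 windows of this length. A MEF2 match was present for Myh1, Myh4, Myh8, Pvalb and Ttn, 18.5% of the 27 against 2.92% of all windows. A CArG box was present for Acta1, Myh4 and Myl3, 11.1% against 1.47%. The units differ: a member counted if any of its windows matched, while the share of all windows counts single windows. Mb, Myh7, Myl2, Pvalb and Tnni1 had more than 1 window, which raises the member shares. Myh4 was the member with all 3 motifs, while the Myh3 window held none of them. These matches are letters in a window and say nothing of binding.

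Every tumour held reads of the mature fast list, summing to at least 14.1 CPM, and 1 library held far more than any other. The sum is not a measure of whole fibres in every library. In MC38 IgG 2 it was 30.3 CPM, with 9.73 CPM of Myh1, 10.5 CPM of Ttn and 0 reads of Ckm. Of the 32 members, 28 were at their highest of all 36 libraries in MC38 anti-PD-1 18, including 17 of 17 mature fast genes and 7 of 8 slow or oxidative genes. The 4 exceptions were Myh8 and Pax7, highest in PancO2 anti-PD-1 71, Myod1, highest in PancO2 anti-CTLA4 62, and Tnnc1, highest in MC38 anti-CTLA4 11. Together the 32 genes made 1627 CPM of MC38 anti-PD-1 18 against a median of 193 CPM over all libraries.

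The mature fast genes summed to 1314 CPM in MC38 anti-PD-1 18, 12.3 times the median of its class. A library was called a fibre peak where this sum was over 5 times the class median, and MC38 IgG 7 was the other one, just inside at 552 CPM and 5.16 times. PancO2 anti-CTLA4 62 lay just outside at 338 CPM and 4.21 times, followed by PancO2 anti-PD-1 71 at 270.2 CPM and 3.36 times. Both peaks were in the Cp class and carried different treatment labels. At the other end stood PancO2 anti-PD-1 64 with 14.1 CPM, CT26 IgG 28 with 28.7 CPM and MC38 IgG 2 with 30.3 CPM. In a bulk library, fewer cells of a type and less RNA per cell cannot be told apart.

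**Figure D1:**
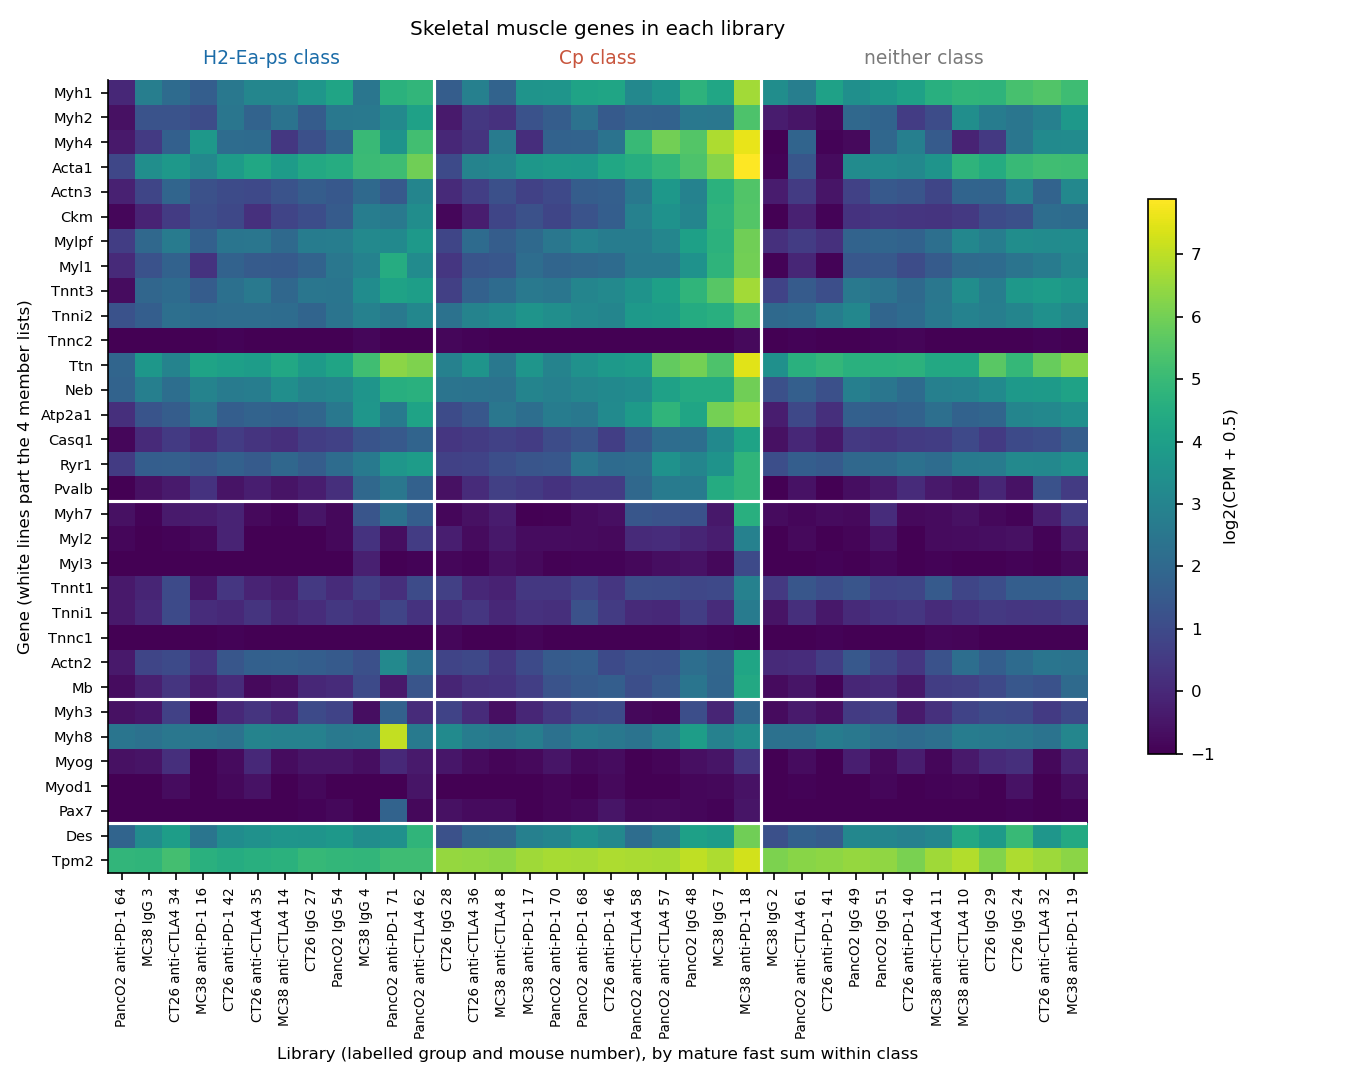
Level of each of the 32 genes (rows, log2 of CPM plus 0.5, colour) in each of the 36 libraries (columns), ordered within class by the summed CPM of the mature fast list. MC38 anti-PD-1 18, at the right of the Cp class, holds the highest value for 28 of the 32 genes, and the bright cell for Myh8 is PancO2 anti-PD-1 71 at 134 CPM.

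Contractile genes of the mature fast list led the peak, and the first of them, Acta1, is not particular to fast fibres. Acta1 reached 235 CPM in MC38 anti-PD-1 18 and 76.8 CPM in MC38 IgG 7, with a median of 14.05 CPM over all libraries. Myh4, the fastest myosin, reached 189.7 CPM and 109 CPM in these libraries, with a median of 3.28 CPM. Tnnt3, the fast troponin T that ties calcium to contraction, reached 99.6 CPM and 46.6 CPM, with a median of 5.39 CPM. For these 3 genes MC38 anti-PD-1 18 was the highest library and MC38 IgG 7 the next. Mylpf and Myl1, the fast myosin light chains, reached 61.1 CPM and 62.5 CPM in MC38 anti-PD-1 18, and MC38 IgG 7 was again next, with 25.8 CPM and 26.7 CPM. Actn3, the alpha-actinin of fast fibres, had 43.9 CPM in the first and 25.1 CPM in the second.

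Most genes of calcium handling and energy supply had the same pair of libraries at the top. Ckm, which regenerates ATP from creatine phosphate, had 44.8 CPM (1033 reads) in MC38 anti-PD-1 18, 26.8 CPM in MC38 IgG 7 and a median of 1.48 CPM. Atp2a1, the fast-fibre calcium pump, had 85.3 CPM, 63.8 CPM and a median of 4.17 CPM. Pvalb, the calcium buffer of fast fibres, had 27.5 CPM, 21.4 CPM and a median of 0.566 CPM, the lowest median of these 3. Casq1, which stores calcium in the sarcoplasmic reticulum, had 17.2 CPM and 8.89 CPM. For Ryr1, the calcium release channel, the next highest library was instead PancO2 anti-CTLA4 62, with 14.4 CPM against 27.9 CPM. Counts of Ckm and Atp2a1 are uncertain where exons overlap another gene, since 15.5% of Ckm exon bases are shared with A930016O22Rik and 21.9% of Atp2a1 exon bases with Rabep2, both on the opposite strand.

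The slow and oxidative genes separated the peaks. Their sum was 83.5 CPM in MC38 anti-PD-1 18 and 9.17 CPM in MC38 IgG 7, against a class median of 7.198 CPM, so the second peak was close to the median of its class. Myh7, the slow myosin, had 23.8 CPM in MC38 anti-PD-1 18, 0.243 CPM in MC38 IgG 7 and a median of 0.155 CPM over all libraries. Myl2, the slow regulatory light chain, had 6.94 CPM in MC38 anti-PD-1 18, and the next highest library had 1.01 CPM. Mb, myoglobin, the oxygen store of oxidative fibres, had 20.1 CPM there and 4.94 CPM in the next library, PancO2 IgG 48. Actn2 reached 18.3 CPM, Tnnt1 6.98 CPM, Tnni1 6.03 CPM and Myl3 1.47 CPM, each highest in MC38 anti-PD-1 18. Mb shares 27.6% of its exon bases with Gm49540 on the opposite strand.

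The fast myosin reads were made up differently from library to library. Myh4 held over 50% of the summed Myh1, Myh2 and Myh4 CPM in 8 of 36 libraries, 6 of them in the Cp class, 2 in the H2-Ea-ps class and 0 in the neither class. Its share was 82.1% in MC38 IgG 7, 81.2% in PancO2 anti-CTLA4 57, 75.2% in MC38 anti-PD-1 16, 74.8% in MC38 IgG 4 and 73.4% in PancO2 anti-CTLA4 58. It was 61.3% in MC38 anti-CTLA4 8, 58.5% in PancO2 IgG 48 and 57.1% in MC38 anti-PD-1 18. In the neither class Myh1 led instead, with 60.7% to 99.4% of the sum. The ratio of Acta1 to Ckm CPM, given for the 32 libraries with more than 3 reads of Ckm, spanned 2.68 in PancO2 anti-CTLA4 57 to 30.1 in MC38 anti-CTLA4 10. Myh1, Myh2, Myh3, Myh4 and Myh8 are close copies that lie side by side on chromosome 11 (67078300 to 67308634, GRCm38), so reads that match more than 1 of them are set aside and their levels are uncertain.

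**Figure D2:**
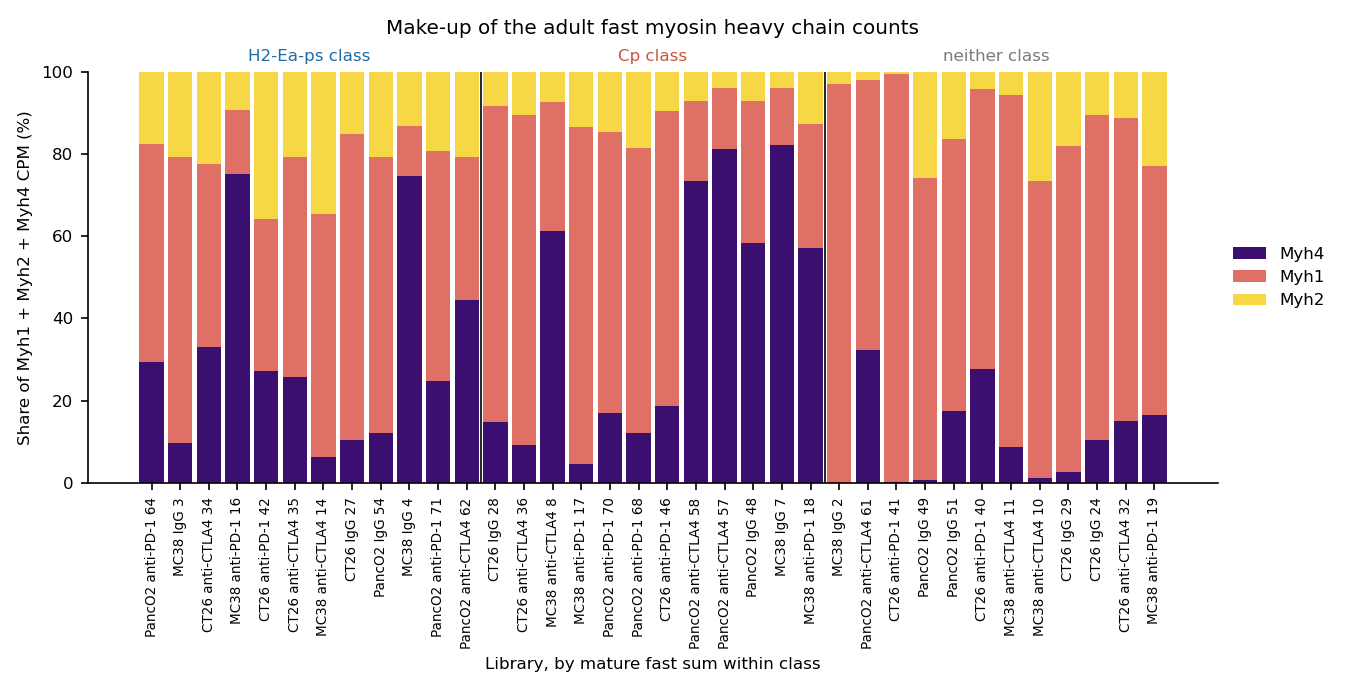
Share of the summed Myh1, Myh2 and Myh4 CPM (percent, bars stacked to 100) in each library, ordered within class by the summed CPM of the mature fast list. Myh4 holds over 50% in 8 libraries, none of them in the neither class, where Myh1 holds 60.7% to 99.4%.

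Some members were present without the rest of the fibre programme. In MC38 IgG 2 Ckm and Myh4 had 0 reads, which allows up to 0.0976 CPM (3 reads), and Acta1 had 0.0325 CPM, while Myh1 had 9.73 CPM and Ttn, the giant spring protein of the sarcomere, 10.5 CPM. In CT26 anti-PD-1 41 Ckm had 0.0352 CPM and Acta1 0.106 CPM beside 16.3 CPM of Myh1 and 29.2 CPM of Ttn. Both libraries were of the neither class, where Myh1 ran from 6.46 to 44.3 CPM and Ttn from 10.5 to 77.2 CPM, so MC38 IgG 2 was the lowest of its class for Ttn. Tnni2, the fast troponin I, also kept 3.61 CPM and 6.09 CPM there. Tpm2, beta-tropomyosin, which smooth muscle and many other cells use, followed the class more than the fibre genes: it ran from 22.3 to 36.5 CPM in the H2-Ea-ps class, from 67.4 to 116 CPM in the neither class and from 81.8 to 153 CPM in the Cp class. Per kb of exon Tpm2 had the highest median level of the members, 28.2 CPM per kb, followed by Acta1 with 9.15 and Mylpf with 5.29.

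The troponin C genes were close to absent. Tnnc2, the fast form, had 10 reads in all 36 libraries together, and its highest value was 0.0867 CPM in MC38 anti-PD-1 18, where Tnnt3 and Tnni2, its partners in the troponin complex, had 99.6 CPM and 40.2 CPM. Of its 800 exon bases, 592 (74.0%) are shared with Ube2c on the opposite strand, and whether the counting used strand is not given in the sources used here. Tnnc1, the slow form, also had 10 reads in all, with no exon overlap in the annotation used. No comparison of either gene was made at so few reads.

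Genes of embryonic or regenerating muscle rose with the fibre genes in 1 peak library and, as a sum, not in the other. In the Cp class 4 of the 5 were highest in MC38 anti-PD-1 18: Myh3, and Myog, Myod1 and Pax7 with 19, 4 and 5 reads. The 5 genes summed to 14.4 CPM there and 7.78 CPM in MC38 IgG 7, with a class median of 7.21 CPM. The highest sum of that class was 16.8 CPM in PancO2 IgG 48. Myh3 ran from 0 to 3.43 CPM (0 to 79 reads) with a median of 0.713 CPM. Its highest library was MC38 anti-PD-1 18, but MC38 IgG 7, the other fibre peak, had 0.451 CPM, below the median. PancO2 anti-CTLA4 57, with 292 CPM of mature fast genes, had 0.0422 CPM of Myh3 from 1 read. PancO2 anti-CTLA4 58, with 161 CPM of mature fast genes, had 0.0759 CPM, and MC38 IgG 4, with 187 CPM, had 0.121 CPM. CT26 IgG 28 was the reverse, with 28.7 CPM of mature fast genes and 1.21 CPM of Myh3. High mature fibre levels thus occurred with Myh3 at 1 or 2 reads and with Myh3 at its highest.

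Myh8 varied little between most libraries. It ran from 3.81 to 14.8 CPM in 35 libraries, and MC38 IgG 2, with no Ckm reads, had 4.46 CPM. The exception was PancO2 anti-PD-1 71 with 134 CPM (1055 reads), 2.92 CPM of Myh3 and 3.04 CPM of Pax7 from 24 reads. Elsewhere Pax7 was at most 0.217 CPM, in MC38 anti-PD-1 18 from 5 reads. Mature fast genes summed to 270.2 CPM in that library, second in the H2-Ea-ps class after PancO2 anti-CTLA4 62, and 4 of the 17 (Myl1, Tnnt3, Ttn and Pvalb) were highest of their class there. Of 18 genes of regeneration and the developing synapse, 5 were highest of all libraries there. They were Myl4 (8.12 CPM), Myf5 (6.22 CPM), Actc1 (4.69 CPM), Myf6 (2.79 CPM) and Musk (1.90 CPM). Ryr2, the cardiac calcium release channel, was also highest there, at 9.01 CPM. The part of this library's low depth and high mitochondrial share in these values was not tested. Myog was at most 0.824 CPM, in MC38 anti-PD-1 18, and Myod1 at most 0.216 CPM (6 reads), in PancO2 anti-CTLA4 62. No read of Myog was found in 4 libraries and none of Myod1 in 20.

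Across the 12 libraries of each class, Ckm was related to each of 8 other genes (24 relations, log2 of CPM plus 0.5, 100000 permutations, two-sided, Benjamini-Hochberg over the 24). Acta1 and Myh4 rose with Ckm in all 3 classes. For Acta1, Pearson's r was 0.864 (p = 0.00013, adjusted p = 0.00078) in the H2-Ea-ps class, 0.956 (p = 1e-05, adjusted p = 0.00012) in the Cp class and 0.898 (p = 5e-05, adjusted p = 0.0004) in the neither class, with Spearman's rho of 0.797, 0.972 and 0.958 (adjusted p = 0.0113, 0.00012 and 0.00012 by permutation). Without the 2 libraries farthest from the median of Ckm, r was 0.768, 0.913 and 0.964. For Myh4, r was 0.880 (adjusted p = 0.0012 by permutation), 0.953 (adjusted p = 0.00012) and 0.733 (adjusted p = 0.0147), with rho of 0.811, 0.902 and 0.755 (adjusted p = 0.00974, 0.00128 and 0.0167), and r of 0.773, 0.919 and 0.551 without the 2 farthest libraries. The smallest p that these permutations can give is 1e-05.

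Myh3 behaved otherwise. It rose with Ckm in the neither class, with r of 0.778 (p = 0.0026, adjusted p = 0.00693 by permutation) and rho of 0.762 (adjusted p = 0.0163), and r of 0.895 without the 2 farthest libraries. In the H2-Ea-ps class r was 0.268 and in the Cp class 0.137 (adjusted p = 0.501 and 0.762), and without the peak libraries MC38 anti-PD-1 18 and MC38 IgG 7 r was -0.284 in the Cp class. Whether the classes differ in this relation was not tested. Myh8 and Myog passed the threshold in no class. For Myog, r in the neither class was 0.530 (adjusted p = 0.133 by permutation) and 0.854 without the 2 farthest libraries. Its r without the 2 farthest libraries was -0.0898 in the H2-Ea-ps class and -0.528 in the Cp class. Myog had 0 to 21 reads a library, which limits this test. Myh7 rose with Ckm in the H2-Ea-ps class (r = 0.825, adjusted p = 0.00561 by permutation) and the Cp class (r = 0.744, adjusted p = 0.00703), with rho of 0.692 and 0.657 (adjusted p = 0.0375 and 0.0521), and r of 0.844 and 0.833 without the 2 farthest libraries. Des, desmin, the intermediate filament of all muscle types, rose with Ckm in the Cp class (r = 0.794) and the neither class (r = 0.816), with adjusted p of 0.00488 and 0.00535 by permutation, rho of 0.769 and 0.853, and r of 0.588 and 0.921 without the 2 farthest libraries. Krt14, a keratin of the basal epidermis, passed in no class.

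**Figure D3:**
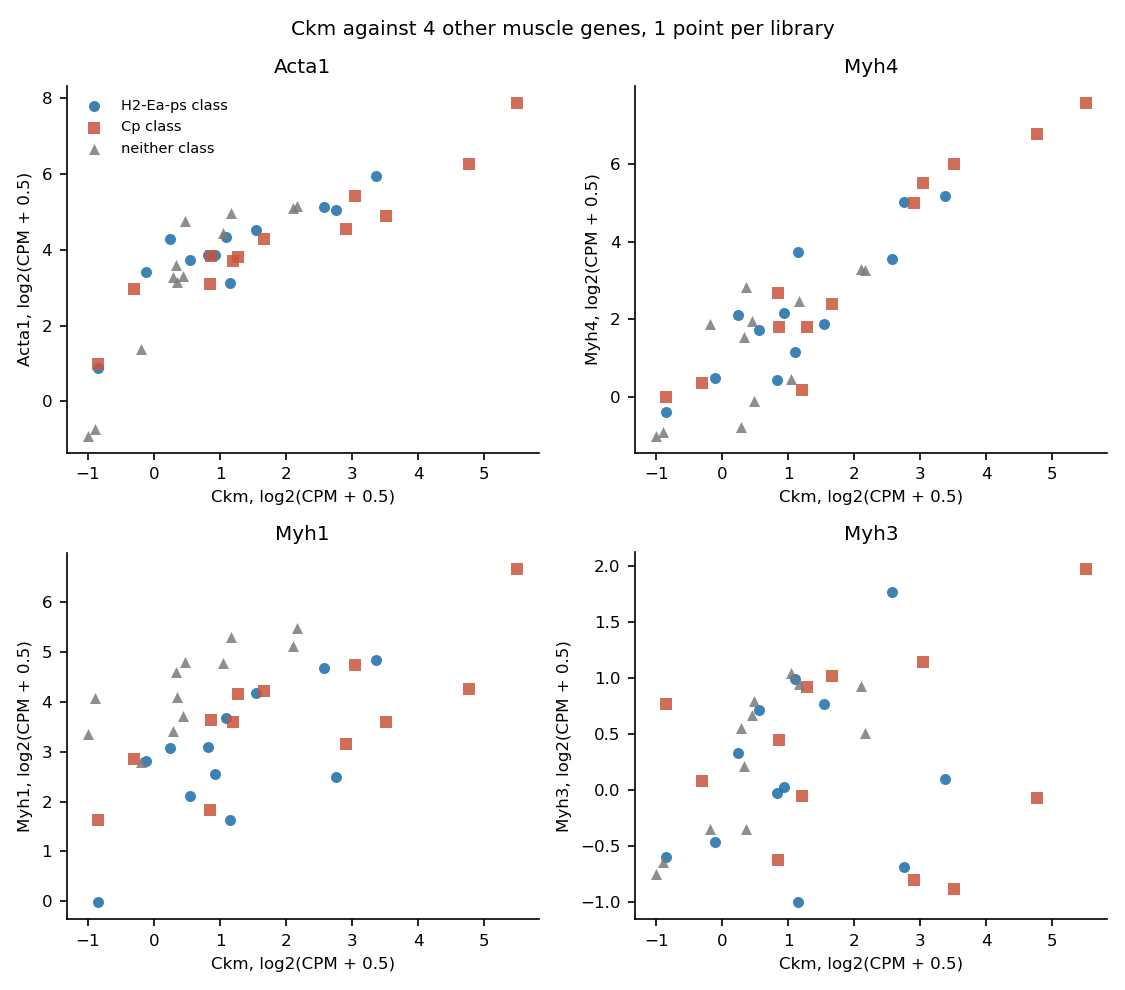
Ckm (x axis) against Acta1, Myh4, Myh1 and Myh3 (y axes), all as log2 of CPM plus 0.5, with 1 point per library and the class by colour and shape. Acta1 and Myh4 rise with Ckm in each class, Myh1 stays high in the 2 neither-class libraries with almost no Ckm, and Myh3 at high Ckm ranges from 0.0422 CPM in PancO2 anti-CTLA4 57 to 3.43 CPM in MC38 anti-PD-1 18.

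Over the 36 libraries, which share depth and class structure, 15217 expressed genes were ranked by the likeness of their class-centred levels to Ckm, as a description. The genes outside the members that were most like it were Mybpc2, Cmya5, Myoz1, Pygm, Tcap, Cacna1s, Eef1a2, Myot, Ampd1 and Mybpc1, with Pearson's r from 0.974 to 0.861. Several encode known parts of the adult fibre, such as fast myosin-binding protein C (Mybpc2), muscle glycogen phosphorylase (Pygm) and the voltage sensor of the T-tubule (Cacna1s). The genes most like Myh3 were Myl4, Myom3, Fbn2, Cap2, H19, Pcsk5, Srpx2, Xirp1, Lrrc15 and Usp13, with lower r, from 0.792 to 0.699. Myl4 is the embryonic light chain, H19 an imprinted RNA of fetal tissue and Lrrc15 a fibroblast gene. No gene was on both lists, but lists this short out of 15217 genes seldom share a gene, so this says little. Among the members, Atp2a1 was most like Ckm (r = 0.969), while Myh3 and Myh8 were the least like it of those ranked (r = 0.295 and 0.279). Myh4 was the member least like Myh3 (r = 0.0993).

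Other gene lists showed what else moved in the peak libraries. Of 32 further genes of mature fibres, 25 were highest of all libraries in MC38 anti-PD-1 18, where their sum was 525 CPM against 282 CPM in MC38 IgG 7 and a Cp class median of 195 CPM. Eno3, the muscle enolase and the highest of this list, was no peak gene: it had 142 CPM and 135 CPM in these libraries and a class median of 128 CPM. Of 18 genes of regeneration and the developing synapse, 4 were highest in MC38 anti-PD-1 18 and 5 in PancO2 anti-PD-1 71. Of 8 tumour tissue, 9 keratinocyte and 8 adipocyte genes, 0 were highest in MC38 anti-PD-1 18, and 1, 0 and 2 were in PancO2 anti-PD-1 71. The share of all genes that were highest in either library is not given here. The regeneration list summed to 217 CPM in MC38 anti-PD-1 18, beside a class median of 216 CPM. Much of it was Ankrd1, at 122 CPM, Cdh15, at 35.3 CPM, and Chrnb1, at 30.6 CPM. Cdh15 was 1 of the 4 genes highest of all libraries in MC38 anti-PD-1 18, with 19.4 CPM in MC38 IgG 7 and a class median of 14.7 CPM. The flat sum thus does not stand for each gene of the list.

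Skin genes did not accompany the fibre peaks. The 9 keratinocyte genes counted here summed to 5.29 CPM in MC38 anti-PD-1 18 and 4.93 CPM in MC38 IgG 7, with a Cp class median of 5.72 CPM and a class range from 2.74 to 578 CPM. Krt14 was at 0.130 CPM and 0.0347 CPM, and Krt1 at 0 and 0.139 CPM. PancO2 IgG 48 was different: it had 578 CPM of keratinocyte genes, with 209.8 CPM of Krt14, beside 331 CPM of mature fast genes and the highest Mb after MC38 anti-PD-1 18. The part of skin in that library's muscle reads was not tested. Smooth muscle and pericyte genes summed to 600.0 CPM in MC38 anti-PD-1 18, the highest of any library, and to 477 CPM in MC38 IgG 7, with a class range from 395 to 600.0 CPM. Most of the sum in MC38 anti-PD-1 18 was Notch3, at 335 CPM, and Smtn, at 167 CPM, with class medians of 253 and 151 CPM. Rgs5, at 18.6 CPM, was close to its class median of 18.3 CPM. Of the 10 genes of this list, 2 were highest of all libraries there. In MC38 anti-PD-1 18 and MC38 IgG 7 the Schwann cell list held 121 CPM and 113 CPM, within the class range of 85.6 to 130 CPM. The adipocyte list held 16.3 CPM and 6.596 CPM, within a class range of 0.932 to 25.0 CPM.

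Levels were then compared between the classes with edgeR's quasi-likelihood test, which was fitted to 16323 genes. Of the 32 members, 24 passed the filter on low counts, and Myh7, Myl2, Myl3, Tnnc1, Tnnc2, Myog, Myod1 and Pax7 were not tested. At an unadjusted p under 0.05 the calls were 4 of 24 members and 72.8% of all genes for H2-Ea-ps against neither, 15 and 69.9% for Cp against neither, and 12 and 75.7% for Cp against H2-Ea-ps. Between the Cp and neither classes 67.6% of all genes were called, 34.2% higher and 33.4% lower in the Cp class. Of the members 14 of 24 (58.3%) were called, a share below that of all genes, and all 14 were higher in the Cp class. They comprised 11 of 16 mature fast genes, 2 of 4 slow or oxidative genes (Mb and Tnni1), 0 of 2 developmental genes and Tpm2. Myh8 was called without PancO2 anti-PD-1 71 (0.48, edgeR adjusted p = 0.00361) and by DESeq2 (0.49, adjusted p = 0.0019). Without the fibre peak libraries Mb was at 0.83 (edgeR adjusted p = 0.165), and Tnnt1 fell by 0.87 on the log2 scale (edgeR adjusted p = 0.00768). The median log2 fold change was 1.10 over the members and 0.02 over all genes.

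The largest differences were in genes of the mature fast list. Pvalb had a median of 1.04 CPM in the Cp class (0.164 to 27.5) and 0.218 CPM in the neither class (0 to 1.86), a log2 fold change of 3.80 ± 0.82 (SE, edgeR adjusted p = 0.000107). Pvalb was above 1 CPM in 10 of 36 libraries. It passed the filter on low counts only with the libraries of the Cp class, where it was high, which limits this test. Myh4 had medians of 5.31 and 2.80 CPM, a log2 fold change of 3.48 ± 0.90 (edgeR adjusted p = 0.000893). For Ckm the medians were 2.30 and 0.817 CPM, and the log2 fold change was 2.78 ± 0.75 (edgeR adjusted p = 0.00134). In all 3 genes the classes overlapped, and the fitted fold change was larger than the ratio of the medians. With the labelled group as a further term 7 of 27 members (25.9%) and 62.6% of all genes were called, and Myh4 (2.01, edgeR adjusted p = 0.0778) and Ckm (1.78, edgeR adjusted p = 0.0748) were not. Without the fibre peak libraries, both in the Cp class, 6 of 24 (25%) were called beside 65% of all genes, and the log2 fold change of Ckm was 1.43 (edgeR adjusted p = 0.0618). Tnni2 had medians of 10.8 and 6.30 CPM and a log2 fold change of 1.22 ± 0.27 (edgeR adjusted p = 0.000122), and was also called without the peak libraries. Acta1 (1.35 ± 0.64, edgeR adjusted p = 0.0597), Myh1 (-0.17 ± 0.47) and Ttn (0.10 ± 0.49) did not pass, and neither did Myh3 (0.26 ± 0.53).

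Between the Cp and H2-Ea-ps classes 74.1% of all genes were called, 36% higher and 38.1% lower in the Cp class. Of the members 11 of 24 were higher and 1, Myh8, lower. Mb had medians of 2.11 and 0.427 CPM, a log2 fold change of 2.39 ± 0.61 (edgeR adjusted p = 0.000662). Tpm2 had the smallest standard error of the members and a log2 fold change of 1.80 ± 0.10 (edgeR adjusted p = 5.33e-19), and the classes did not overlap. Myh8 fell by 1.27 on the log2 scale (SE 0.47, edgeR adjusted p = 0.0147), but without PancO2 anti-PD-1 71 the value was 0.27 in the other direction (edgeR adjusted p = 0.107). Myh1 was called without that library (1.06, edgeR adjusted p = 0.0479) and not with it (0.86, edgeR adjusted p = 0.106). Without the fibre peak libraries 4 of 24 members (Mb, Tnni2, Tpm2 and Myh8) and 72.1% of all genes were called, and with the labelled group as a further term 6 of 27 members and 68.5% of all genes.

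Between the H2-Ea-ps and neither classes 70.9% of all genes were called, 36.9% higher and 34% lower in the H2-Ea-ps class, but 3 of 24 members. Tpm2 fell by 1.49 on the log2 scale (SE 0.10, edgeR adjusted p = 2.11e-16) and Tnnt1, the slow troponin T, by 1.26 (SE 0.36, edgeR adjusted p = 0.00202). Myh8 was higher by 1.76 ± 0.47 (edgeR adjusted p = 0.00131), and by 0.22 without PancO2 anti-PD-1 71 (edgeR adjusted p = 0.198). Myh1 did not pass (-1.03 ± 0.48, edgeR adjusted p = 0.0560) but did without that library (-1.23, edgeR adjusted p = 0.0241), without the fibre peak libraries (-1.02, edgeR adjusted p = 0.0306), by library size alone (-1.13, edgeR adjusted p = 0.0379) and with limma-voom (-1.40, adjusted p = 0.0121). In the fit of all libraries 0 of the 16 mature fast genes tested passed, and Myh4 and Pvalb had log2 fold changes of 1.51 ± 0.86 and 1.54 ± 0.81.

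**Figure D4:**
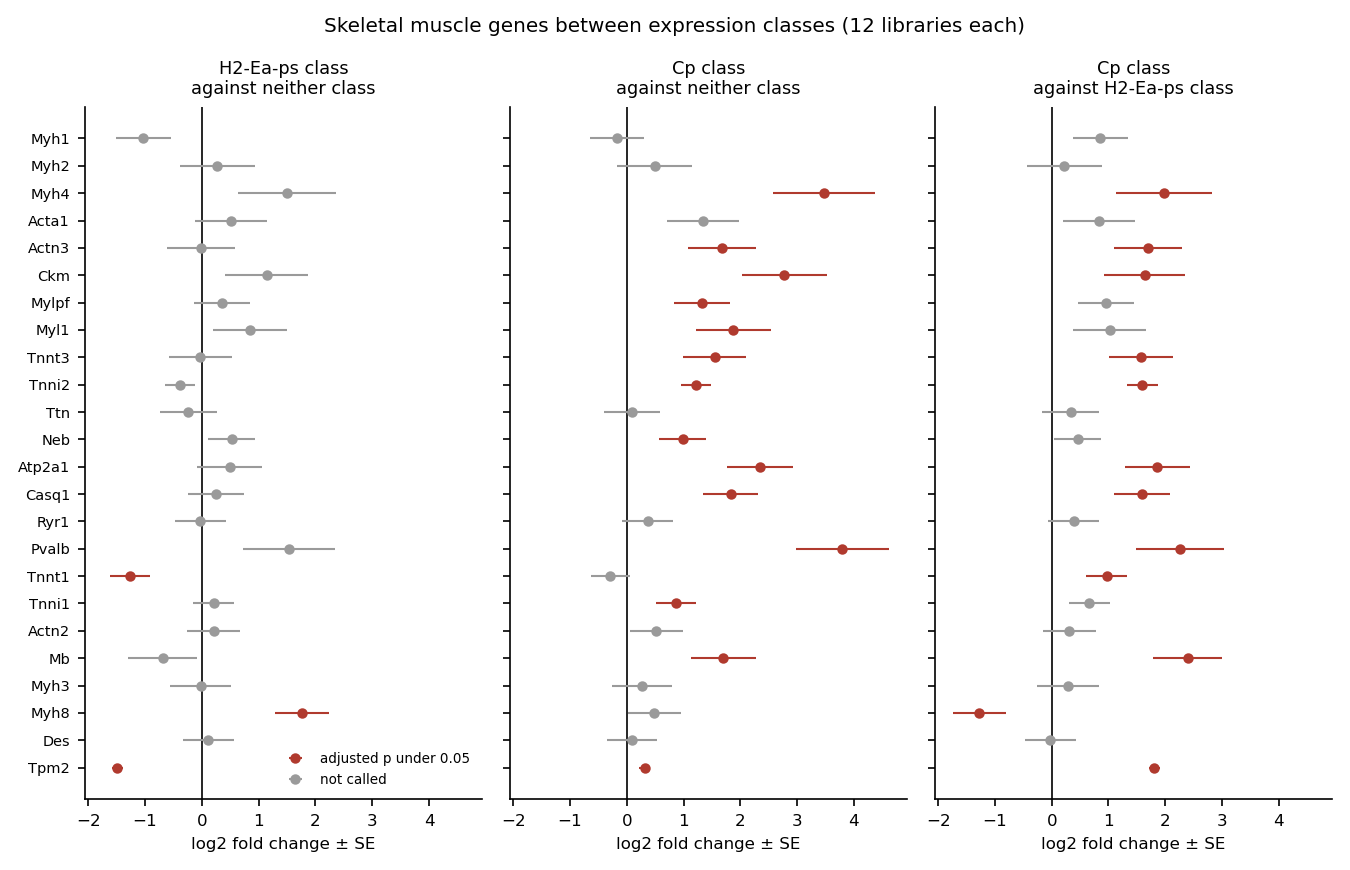
Log2 fold change with its standard error for the 24 tested members in the 3 comparisons between classes of 12 libraries, red where the edgeR adjusted p was under 0.05. In the middle panel 14 members lie to the right in red, and in the left panel 3 are red, with Tpm2 and Tnnt1 to the left and Myh8 to the right.

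The labelled groups were compared next, as labelled. Since the labels did not match the strain of all libraries, these comparisons cannot tell whether model or antibody went with muscle content. Each group held libraries of at least 2 classes. Summed mature fast CPM of MC38 IgG was 30.3, 56.9, 187 and 552 (mean 207 ± 240.2, SD, n = 4), of MC38 anti-CTLA4 57.2, 80.5, 95.2 and 135 (91.9 ± 32.5) and of MC38 anti-PD-1 71.7, 81.8, 260 and 1314 (432 ± 595). The 3 groups overlapped, and the spread within MC38 anti-PD-1 exceeded every difference of means. For CT26 the values were 28.7, 86.3, 150.5 and 184 with IgG, 54.2, 60.5, 80.3 and 232 with anti-CTLA4 and 59.4, 76.1, 85.5 and 113 with anti-PD-1. For PancO2 they were 81.7, 81.9, 111 and 331 with IgG, 52.9, 161, 292 and 338 with anti-CTLA4 and 14.1, 82.2, 101 and 270.2 with anti-PD-1. In each model the 3 treatments overlapped.

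In the 3 comparisons between labelled models under IgG and the 6 of an antibody with IgG, edgeR called 0 members of the 24 to 26 tested and 0 genes in all (0% called). Between the expression classes it had called 67.6% to 74.1% of all genes. At an unadjusted p under 0.05, members called beside the share of all genes were 1 and 0.563% for PancO2 against MC38, 0 and 0.594% for PancO2 against CT26 and 2 and 0.503% for CT26 against MC38. They were 0 and 0.153% for anti-CTLA4 and 2 and 0.374% for anti-PD-1 in MC38. In CT26 they were 0 and 0.528%, and 0 and 0.332%, and in PancO2 1 and 0.488%, and 1 and 5.56%. DESeq2 called 1 member, Myh3, in each of 2 comparisons and 0 in the others, and limma-voom called 0 members in all 9. The log2 fold change of Ckm in MC38 anti-PD-1 against IgG was 0.59 ± 1.53 (edgeR adjusted p = 0.9999), and leaving out MC38 anti-PD-1 18 turned it to -1.77.

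Myh3 was the member that came nearest. In MC38 IgG it had 0.0976, 0.121, 0.227 and 0.451 CPM, from 2 to 13 reads a library. In CT26 IgG it had 1.21, 1.43, 1.49 and 1.56 CPM, and in PancO2 IgG 0.970, 1.09, 1.21 and 1.71 CPM. All values of MC38 IgG lay below all values of the other 2 groups, which overlapped each other. The log2 fold change was 2.61 ± 0.45 for CT26 against MC38 (edgeR unadjusted p = 0.000115, adjusted p = 0.9998, DESeq2 adjusted p = 0.000149) and 2.39 ± 0.45 for PancO2 against MC38 (edgeR unadjusted p = 0.000231, adjusted p = 0.99996, DESeq2 adjusted p = 0.00252). Leaving out each library gave 2.36 to 3.16 and 2.15 to 2.95. Each of the 3 IgG groups held libraries of all 3 classes, and the values by class are a description only. With all its values below those of the other 2 groups, MC38 IgG was bound to be lowest in every class. In the H2-Ea-ps class it had 0.121 and 0.227 CPM against 1.49 in CT26 IgG and 1.21 in PancO2 IgG. In the Cp class it had 0.451 CPM against 1.21 and 1.71, and in the neither class 0.0976 CPM against 1.43 and 1.56 in CT26 IgG and 0.970 and 1.09 in PancO2 IgG. Under the antibodies the labelled models were not apart in this way. With anti-CTLA4, Myh3 ran from 0.149 to 1.24 CPM in MC38, 0.559 to 1.14 in CT26 and 0.0422 to 0.576 in PancO2. With anti-PD-1 it ran from 0 to 3.43, 0.141 to 1.53 and 0.162 to 2.92 CPM.

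**Figure D5:**
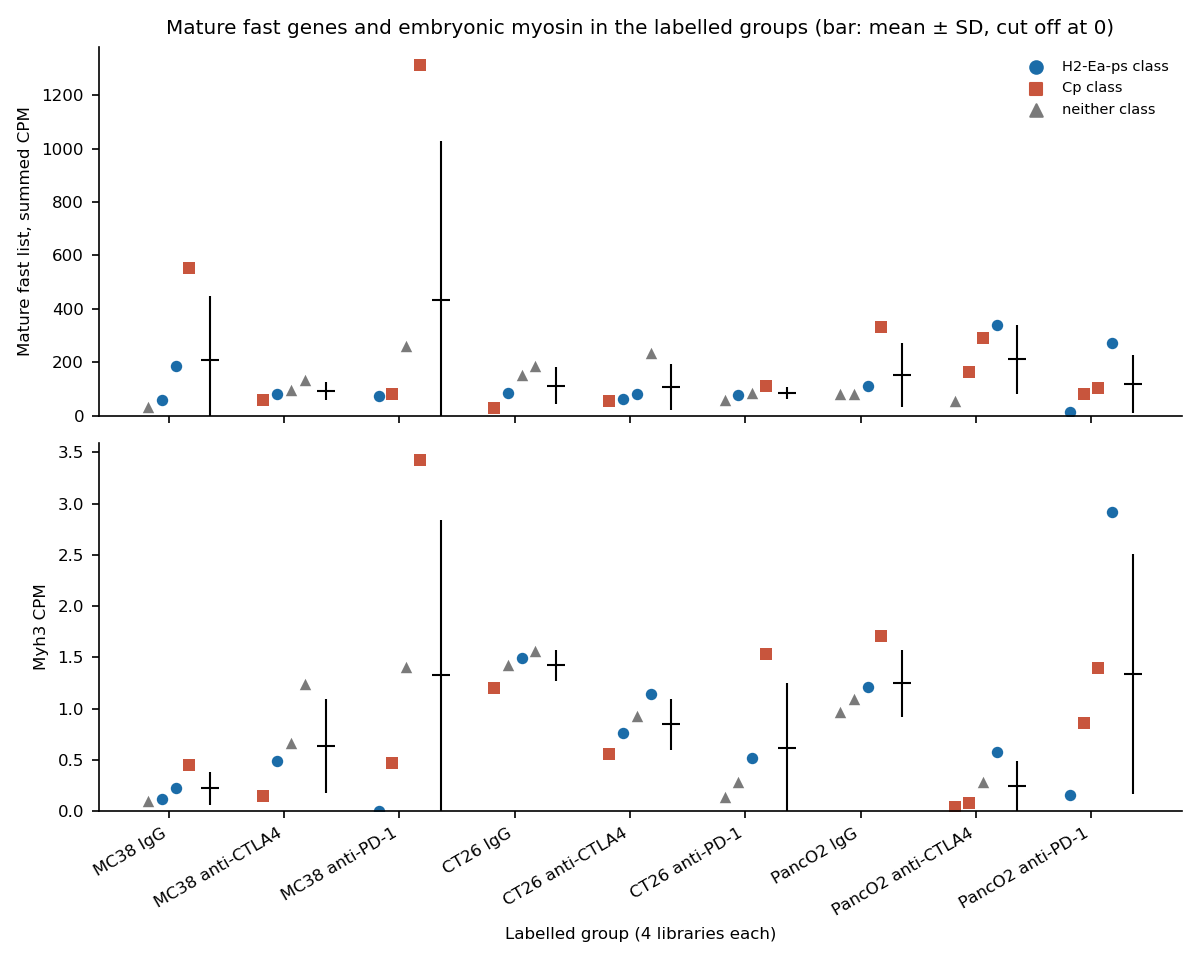
Summed CPM of the mature fast list (top) and CPM of Myh3 (bottom) in each library of the 9 labelled groups, class by colour and shape, with the mean ± SD of 4 libraries beside the points. MC38 anti-PD-1 18 at 1314 CPM sets the mean of its group, and the 4 MC38 IgG libraries reach at most 0.451 CPM of Myh3 where those of CT26 IgG and PancO2 IgG start at 1.21 and 0.970 CPM.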

How the data were processed

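RNA from 36 end-stage tumours was prepared from poly-A RNA, 1 library per tumour, 4 per labelled group. The authors aligned reads with TopHat and Bowtie and counted them with HTSeq, and the submitters' processing notes name FastQC 0.11.5, Bowtie2, HTSeq 07.2 and the build mm10. The labels name the Illumina TruSeq V2 kit, and the study's methods, for a mutation analysis, a stranded KAPA kit. The counting's strand setting and annotation release are not given in the sources used here. The deposited values are raw counts per gene. CPM was computed over gene rows, without the 5 summary rows. Exon lengths and overlaps came from GENCODE M21 (GRCm38), upstream sequence from RefSeq (GRCm38.p6). Totals of 7883106 to 41751023 counts put the limit that a count of 0 allows (3 counts) at 0.0719 to 0.381 CPM, for counting error only.

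Genes were tested with edgeR 4.0.16 (filterByExpr, TMM, robust quasi-likelihood, Benjamini-Hochberg over all genes tested, threshold 0.05), with DESeq2 1.42.0 and limma 3.58.1 (voom) as alternatives in R 4.3.3. The fits were tested on simulated counts. Relations and levels were computed in Python 3.11.15 with scipy 1.17.1, on log2 of CPM plus a pseudocount of 0.5. The members and lists were chosen with earlier results of these data known. Named genes were all members, the 3 highest of each other list by mean CPM, the 10 genes most like Ckm and Myh3, H2-Ea-ps and Cp. Other genes named (Rabep2, Ube2c, A930016O22Rik, Gm49540) are annotated overlaps. Cdh15 and the 5 regeneration genes highest in PancO2 anti-PD-1 71 were named for their levels in single libraries.

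The other lists were mature fibre, regeneration, cardiac, smooth muscle and pericyte, keratinocyte, adipocyte, Schwann cell and tumour tissue genes. Each tumour came from its own mouse by the labels.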

Additional observations from a re-analysis of the deposited data

Results flagged for a closer look

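In each labelled group of 4 libraries, the highest and lowest library were compared with the rest for 5 quantities by Dixon's criterion, which made 45 sets. In 9 of them 1 library stood apart, and the 9 came from 5 libraries. Chance gives about 2.25 for independent sets of normal values. These sets were neither, since Ckm is part of the mature fast sum, the groups mix classes and CPM is skewed. The 9 are therefore a description and were not tested against chance.

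MC38 anti-PD-1 18 stood apart from its group for the summed mature fast genes (1314 CPM, next library 260 CPM), the summed slow or oxidative genes (83.5 CPM, next 13.7 CPM) and Ckm (44.8 CPM, next 3.79 CPM). PancO2 IgG 48 stood apart for the mature fast sum (331 CPM, next 111 CPM), the slow or oxidative sum (14.02 CPM, next 5.40 CPM) and Myh8 (14.8 CPM, next 5.48 CPM), and it is the library with 578 CPM of keratinocyte genes. CT26 anti-CTLA4 32 stood apart for the mature fast sum (232 CPM, next 80.3 CPM). CT26 IgG 28 stood apart at the low end for Ckm (0.0548 CPM, next 1.56 CPM). PancO2 anti-PD-1 71 stood apart for Myh8 (134 CPM, next 6.15 CPM), and it is the library with the lowest total and the highest mitochondrial share.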

How the results depend on the processing

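No paired analysis was possible because each mouse number belongs to 1 library. Of the planned and added alternatives, leaving out 1 library of a labelled comparison changed no count of called genes or members. The cause of each change below was not tested. DESeq2 called 1 gene, the member Myh3, in PancO2 and in CT26 against MC38 under IgG, and 2 genes, no member, in each PancO2 antibody comparison. In Cp against H2-Ea-ps, limma-voom called 6 of 24 members (72.7% of all genes) and the labelled group term 6 of 27 (68.5%), and in Cp against neither the group term called 7 of 27 (62.6%). Without the fibre peak libraries (chosen after seeing the data) 5 of 24 members were called in H2-Ea-ps against neither (70.6% of all genes), 6 in Cp against neither (65%) and 4 in Cp against H2-Ea-ps (72.1%). A threshold of 10 times the class median, or TMM library sizes, left 1 fibre peak library, MC38 anti-PD-1 18, and Ckm alone gave 3, adding PancO2 anti-CTLA4 62 of the H2-Ea-ps class.

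These log2 fold changes turned direction. With limma-voom, Ckm was 1.05 in PancO2 against MC38 IgG and 0.19 in MC38 anti-CTLA4, Myh3 was -0.50 in PancO2 anti-PD-1, Ttn was -0.53 in Cp against neither and Myh8 0.0287 in Cp against H2-Ea-ps. With DESeq2, Myh8 was 0.27 in Cp against H2-Ea-ps and Myh3 0.0447 in H2-Ea-ps against neither. By library size alone, Des was 0.0765 in Cp against H2-Ea-ps. With the labelled group term, Myh3 was 0.18 in H2-Ea-ps against neither, and Ttn -0.61 in Cp against neither and -0.21 in Cp against H2-Ea-ps. Without the fibre peak libraries, Ttn was -0.70, Des -0.69 and Myh3 -0.0056 in Cp against neither, and Acta1 -0.39 and Ttn -0.48 in Cp against H2-Ea-ps. Without PancO2 anti-PD-1 71 (for the relations, chosen after seeing the data), Myh8 was 0.27 in Cp against H2-Ea-ps, and in the H2-Ea-ps class r of Ckm was -0.114 with Myog and -0.639 with Krt14.

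Leaving out each library in turn, Ckm ran from -2.64 to 0.32 in PancO2 against MC38 IgG (0.32 without MC38 IgG 7) and from -1.77 to 2.46 in MC38 anti-PD-1 (-1.77 without MC38 anti-PD-1 18). In CT26 anti-CTLA4 it ran from -0.87 to 0.58 (-0.14 without IgG 28, -0.87 without anti-CTLA4 32). In CT26 anti-PD-1 it ran from -0.73 to 0.39, with 0.18, 0.17, 0.10, 0.17 and 0.39 without IgG 24, IgG 27, IgG 29, anti-PD-1 40 and anti-PD-1 41. In PancO2 anti-PD-1 it ran from -1.37 to 0.78 (0.78 without IgG 48, 0.06 without anti-PD-1 64), and Myh3 from -0.59 to 0.53 (-0.59 without anti-PD-1 71). At a few reads per library, Myog, Myod1, Pax7, Tnnc1 and Tnnc2 are limited by depth.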
